A study of Drosophila melanogaster with 13 samples.

Results

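Peaks on the heterochromatic sequences of the D. melanogaster genome were examined in the ChIP-Seq peak lists of 3 proteins. ChIP-Seq pulls down chromatin bound by a protein with an antibody and sequences it, and a peak is an interval where reads pile up. A peak was included when its sequence name in the UCSC dm3 build ended in Het, which gave 2LHet, 2RHet, 3LHet, 3RHet, XHet and YHet. Lines that repeated the same peak were counted once. This gave 620 heterochromatic peaks of 3433 distinct peaks in all, of which 2809 lay on the 6 arms (X, 4 and the left and right arms of chromosomes 2 and 3). Mitochondrial peaks were left out (1 in the Dsim_Zeus list, 2 in the Dmel_Zeus list and 1 in the Dyak_Caf40 list).

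The proteins were Dsim_Zeus and Dmel_Zeus, the Zeus orthologs of D. simulans and D. melanogaster, and Dyak_Caf40, the Caf40 protein of D. yakuba. Zeus arose as a retroposed copy of Caf40, a subunit of the CCR4-NOT complex that acts on messenger RNA, and D. yakuba has no Zeus, so its Caf40 stands for the state before the copy arose. Each protein carried a FLAG tag and was expressed under the Actin5C promoter, which is active in most tissues, from a transgene in D. melanogaster of the w1118 strain. All groups therefore shared the host genome, its own Zeus and Caf40 genes, the tag and the anti-FLAG antibody. Chromatin came from pooled whole adult flies, whose sex was not in the labels, so every peak is an average over tissues. The labels describe 4 Dsim_Zeus, 2 Dmel_Zeus and 4 Dyak_Caf40 immunoprecipitated libraries with 1 input library for each protein, all technical replicates of a single transgenic line per protein. The serial numbers in the titles of the Dsim_Zeus libraries lie apart from those of the other proteins, so library series and protein cannot be told apart where Dsim_Zeus is compared.

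Heterochromatin is the densely packed part of the genome around the centromeres and along most of the Y chromosome. It is rich in transposable elements and satellite repeats, holds few genes, and carries methylation of histone H3 at lysine 9 that is bound by Heterochromatin Protein 1. In dm3, the assembled stretches of heterochromatin that are not joined to an arm are kept as separate Het sequences, while the centromere-proximal end of each large arm also reaches into heterochromatin.

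The deposited lists hold 1 set of peaks per protein and no value per library, so no difference between proteins could be set against the spread between replicates. Tests compare lists, not replicated conditions. They treat peaks as independent, which neighbouring peaks are not, and lists share sites. Read depth is not in the lists, and the read counts per replicate that the study tabulates were not used here. Intervals cover counting error only.

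Heterochromatic sequences held a large part of the Dsim_Zeus list and a small part of the others. The Dsim_Zeus share was 44.8% with 488 of 1090 peaks (95% Wilson interval 41.8 to 47.7), the Dmel_Zeus share 9.57% with 36 of 376 (7.0 to 13.0) and the Dyak_Caf40 share 4.89% with 96 of 1963 (4.02 to 5.94). The 6 sequences made up 7.11% of the length spanned by peaks, taking the highest peak end in any list as the length of a sequence. Per 100 kb, Dsim_Zeus had 5.31 peaks on heterochromatic sequences and 0.501 on the arms, a ratio of 10.6. Dmel_Zeus had 0.391 peaks per 100 kb of heterochromatic sequence and 0.283 on the arms, a ratio of 1.38. Dyak_Caf40 had 1.04 peaks per 100 kb of heterochromatic sequence against 1.55 on the arms, a ratio of 0.672. Dyak_Caf40 was thus the list whose peaks were sparser on heterochromatic sequences than on the arms, but this direction turned when the running numbers in the peak names were counted in place of peaks (2.35 per 100 kb of heterochromatic sequence and 2.17 on the arms). In covered length, heterochromatic peaks took up 256.5 kb in Dsim_Zeus, 26.8 kb in Dmel_Zeus and 56.6 kb in Dyak_Caf40, or 45.8%, 17.2% and 6.31% of all bases in the peaks of each list.

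All 3 pairs of lists differed in the share of peaks on heterochromatic sequences by two-sided Fisher's exact tests. The odds ratio was 15.7 for Dsim_Zeus over Dyak_Caf40 (95% interval 12.4 to 20.2, adjusted p = 1.27e-156 by Fisher's exact test) and 7.65 for Dsim_Zeus over Dmel_Zeus (5.29 to 11.3, adjusted p = 2.20e-39). It was 2.06 for Dmel_Zeus over Dyak_Caf40 (1.34 to 3.11, adjusted p = 0.000852 by Fisher's exact test). The last of these rested on how peaks were counted. With the 376 top-scoring peaks of each list, 36 of 376 Dmel_Zeus and 33 of 376 Dyak_Caf40 peaks were heterochromatic (odds ratio 1.10, adjusted p = 0.801, Fisher's exact test). With peaks closer than 10 kb joined into clusters, the Dmel_Zeus over Dyak_Caf40 odds ratio was 1.24 (adjusted p = 0.469 by Fisher's exact test). The Dsim_Zeus odds ratios stayed past the threshold in each of these counts.

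The high Dsim_Zeus density was found on every heterochromatic sequence, although on XHet 7 of its 9 peaks lay in a single group of 20.2 kb. Its peaks numbered 21 on 2LHet, 176 on 2RHet, 148 on 3LHet, 113 on 3RHet, 9 on XHet and 21 on YHet, and the density ran between 4.41 and 6.10 peaks per 100 kb. Dmel_Zeus had 2, 7, 13, 5, 7 and 2 peaks on the same sequences in that order, at 0.202 to 0.581 peaks per 100 kb outside XHet. Dyak_Caf40 had 2, 34, 32, 19, 8 and 1 peaks, at 0.290 to 1.25 per 100 kb outside XHet. XHet, the shortest sequence with 204 kb, was where the lists came close together, with densities of 4.41 for Dsim_Zeus, 3.43 for Dmel_Zeus and 3.92 for Dyak_Caf40. YHet held 21 Dsim_Zeus peaks, 2 Dmel_Zeus peaks and 1 Dyak_Caf40 peak.

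**Figure D1:**
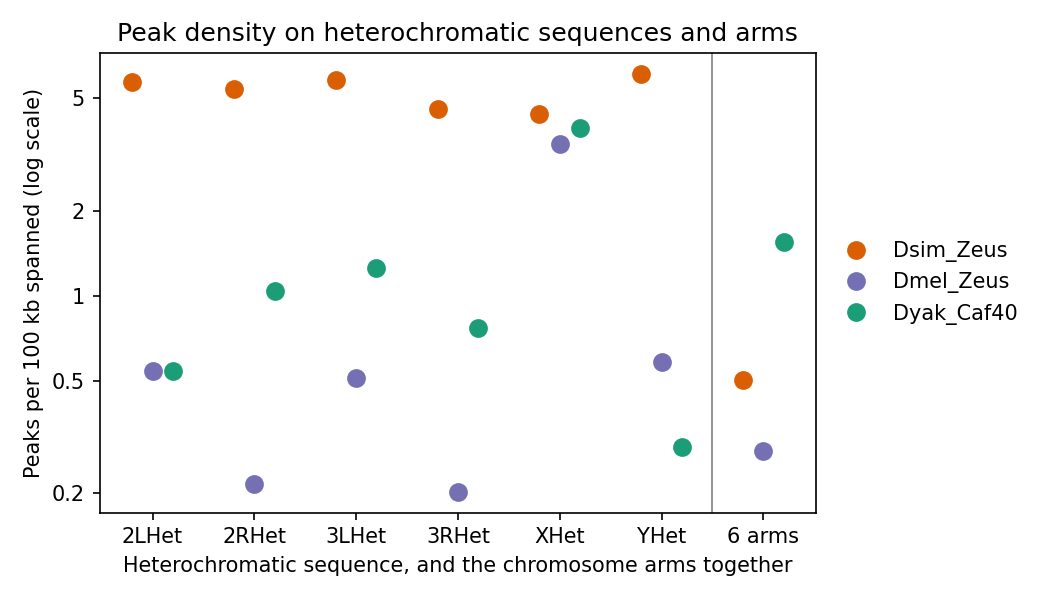
Peaks per 100 kb (log scale) on each heterochromatic sequence and, right of the line, on the 6 arms together, with 1 point per peak list and no replicates. Dsim_Zeus lies between 4.41 and 6.10 on every heterochromatic sequence and at 0.501 on the arms, while Dmel_Zeus and Dyak_Caf40 come near it only on XHet.

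The spread of heterochromatic peaks over the 6 sequences was compared between lists in 18 two-sided Fisher's exact tests, of which 2 passed the threshold after adjustment and 3 before it. Both concerned XHet. It held 1.84% of the heterochromatic Dsim_Zeus peaks, 19.4% of those of Dmel_Zeus and 8.33% of those of Dyak_Caf40. The odds ratio was 0.0788 for Dsim_Zeus over Dmel_Zeus (0.0241 to 0.268, adjusted p = 0.000528 by Fisher's exact test) and 0.208 for Dsim_Zeus over Dyak_Caf40 (0.0690 to 0.636, adjusted p = 0.0245). With clusters of peaks in place of peaks, no test of the 18 passed, before or after adjustment (Fisher's exact test), since the XHet peaks of Dmel_Zeus and of Dyak_Caf40 each formed 1 cluster. For 2RHet, 3LHet and 3RHet the shares did not differ past the threshold. 2RHet held 36.1% of the heterochromatic Dsim_Zeus peaks, 19.4% of those of Dmel_Zeus and 35.4% of those of Dyak_Caf40, and it makes up 35.4% of the heterochromatic length.

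The XHet peaks that the lists shared lay in a single group at chrXHet:183899-204067. The group spans 20.2 kb, or 9.88% of XHet as spanned by peaks. It held 7 of 9 Dsim_Zeus XHet peaks, all 7 of Dmel_Zeus and all 8 of Dyak_Caf40. The peaks covered 49.4% of the group in Dsim_Zeus, 51.5% in Dmel_Zeus and 62.8% in Dyak_Caf40, and 7209 bp were covered in all 3 lists. Every Dmel_Zeus and every Dyak_Caf40 peak of the group met a Dsim_Zeus peak. The widest heterochromatic Dsim_Zeus peak, chrXHet:189285-196093 with 6809 bp, met 3 Dmel_Zeus peaks and 3 Dyak_Caf40 peaks that were separated by gaps. On the score that the authors deposited, which has no stated scale and serves here as a rank within a list, this interval ranked 9 in Dsim_Zeus, and its best Dmel_Zeus and Dyak_Caf40 peaks ranked 6 and 108. The lists also differed within the group. At chrXHet:199708-202333 Dyak_Caf40 had a peak of 2626 bp and Dsim_Zeus had 2 short peaks inside it of 243 and 305 bp, while Dmel_Zeus had none there.

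**Figure D2:**
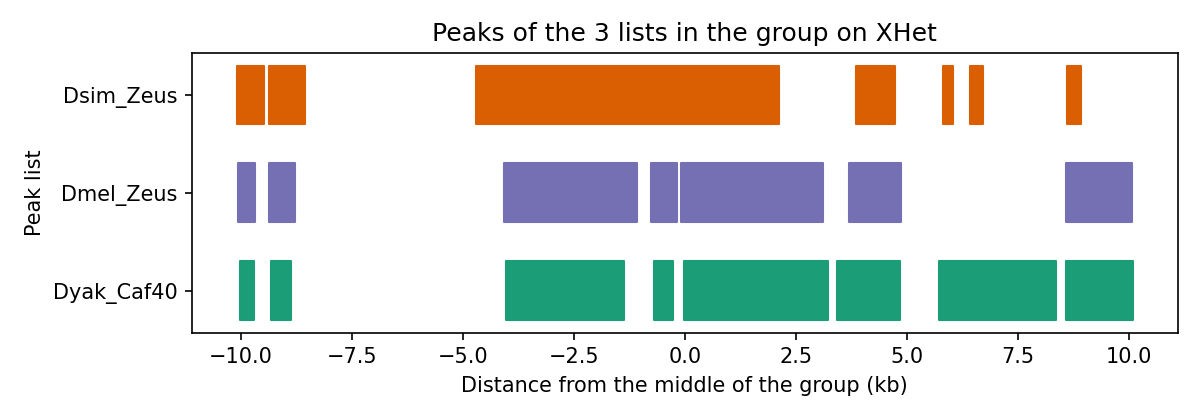
Peaks of the group on XHet drawn to scale, with 1 row per list and distance from the middle of the group in kb. Peaks of the 3 lists lie over each other at most positions, and 1 Dsim_Zeus peak of 6809 bp meets 3 Dmel_Zeus and 3 Dyak_Caf40 peaks.

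Outside XHet, positions with peaks of all 3 proteins were few. Joining overlapping peaks of the 3 lists gave 560 heterochromatic regions, of which 523 held peaks of 1 list, 26 of 2 lists and 11 of all 3. Those of 1 list were 465 Dsim_Zeus, 2 Dmel_Zeus and 56 Dyak_Caf40 regions. Those of 2 lists were 7 with Dsim_Zeus and Dyak_Caf40, 18 with Dmel_Zeus and Dyak_Caf40 and 1 with Dsim_Zeus and Dmel_Zeus. Of the 11 regions with all 3, 5 lay on XHet, 2 on 2RHet, 2 on 3RHet, 1 on 3LHet and 1 on YHet.

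The YHet region is the clearest case of a single site found at the same place in each list. It was called at chrYHet:137059-137555 in Dsim_Zeus, chrYHet:137030-137583 in Dmel_Zeus and chrYHet:137056-137558 in Dyak_Caf40. It ranked 14 in Dsim_Zeus, 15 in Dmel_Zeus and 186 in Dyak_Caf40, where it was the only YHet peak. A similar site was chr3RHet:2308115-2308645, which ranked 13 in Dsim_Zeus, 25 in Dmel_Zeus and 282 in Dyak_Caf40. The 2RHet site chr2RHet:3187834-3188367 ranked 31, 65 and 188 in the lists of Dsim_Zeus, Dmel_Zeus and Dyak_Caf40. The weaker 2RHet site, chr2RHet:2827744-2828168, ranked 518, 260 and 250 in the same order. On 3LHet, the region chr3LHet:615152-620415 held 3 Dsim_Zeus peaks, 2 Dmel_Zeus peaks and 1 Dyak_Caf40 peak of 5179 bp, the widest heterochromatic peak of that list. In 1 region, chr3RHet:1952153-1955516, the Dsim_Zeus and Dmel_Zeus peaks did not meet each other and were joined only through Dyak_Caf40 peaks.

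The strongest heterochromatic Dsim_Zeus sites included some that another list held and some that no other list held. Of all 488 heterochromatic Dsim_Zeus peaks, 465 (95.3%) met neither other list. Among those ranked 14 or better, the peaks at ranks 6, 7, 9, 10, 13 and 14 met another list. The next heterochromatic peaks, at ranks 16, 18, 23, 25, 26 and 29, met neither. The highest-scoring peak of the whole Dsim_Zeus list, chrXHet:5-771, lay at the very start of XHet and met no peak of the other proteins. Neither did chr2RHet:2268937-2271455, ranked 8 and present on 12 lines, nor chr2LHet:368046-368888, ranked 12, which holds the highest position on 2LHet in any list. A further Dsim_Zeus peak, chrYHet:4464-4878, ranked 7 and met a Dmel_Zeus peak at chrYHet:4454-4723 of rank 33 but no Dyak_Caf40 peak. This was the single heterochromatic region with peaks of both Zeus proteins and without Caf40. Of the 10 top-ranked Dsim_Zeus peaks, 6 were heterochromatic (60%, 31.3 to 83.2), and of the top 100, 50 (50%, 40.4 to 59.6). The share over the whole list, 44.8%, lies within both intervals, and within those of the top 20 (55%, 34.2 to 74.2) and 50 (48%, 34.8 to 61.5). It lies below the interval of the top 200, of which 104 were heterochromatic (52%, 45.1 to 58.8). With the list cut by score into 5 parts, the share never fell with rising score. It was 39.0% in the lowest part (32.8 to 45.6) and 52.8% in the highest (46.1 to 59.3).

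The 5 highest-scoring heterochromatic Dyak_Caf40 peaks each met a Dmel_Zeus peak, and the fifth also met a Dsim_Zeus peak. Among the 376 top-scoring Dyak_Caf40 peaks, 29 of 33 heterochromatic ones (87.9%) and 283 of 343 on the arms (82.5%) met a Dmel_Zeus peak. The top heterochromatic Dyak_Caf40 peak, chr3LHet:1396391-1397142, ranked 15 in its list and met the Dmel_Zeus peak chr3LHet:1396715-1397136, which ranked 36. The next Dyak_Caf40 peaks were chr3LHet:601284-601734 at rank 39, chr2RHet:3197861-3198246 at rank 73 and chr2RHet:471509-472346 at rank 99. None of these 4 met a Dsim_Zeus peak, while chrXHet:189958-192622, the fifth at rank 108, lay under the wide Dsim_Zeus peak of the XHet group. On 2LHet, the pair of Dmel_Zeus peaks and the pair of Dyak_Caf40 peaks lay together at chr2LHet:32755-34870, and the 21 Dsim_Zeus peaks of 2LHet were at least 13.4 kb away. Only 3 heterochromatic Dmel_Zeus peaks met no Dyak_Caf40 peak, namely the YHet peak above and the neighbours chr3LHet:2160587-2160962 and chr3LHet:2161297-2161518, at ranks 184 and 218.

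The next comparison asked whether heterochromatic peaks were shared between lists as often as arm peaks, counting an overlap of at least 1 bp. The Zeus lists differed from each other in the share meeting Dyak_Caf40, which also depends on list size. Of heterochromatic Dsim_Zeus peaks, 22 of 488 (4.51%, 3.00 to 6.73) met a Dyak_Caf40 peak, against 33 of 36 Dmel_Zeus peaks (91.7%, 78.2 to 97.1), an odds ratio of 0.00445 (0.000812 to 0.0157, p = 3.61e-34 by two-sided Fisher's exact test). Only 96 heterochromatic Dyak_Caf40 peaks could be met, against 488 Dsim_Zeus and 36 Dmel_Zeus peaks. List size thus capped the Dsim_Zeus share unless many peaks met the same partner, and its part in the odds ratio was not tested. Of those 96 Dyak_Caf40 peaks, 22 met a Dsim_Zeus peak and 32 a Dmel_Zeus peak. The share of Dmel_Zeus peaks meeting Dyak_Caf40 was 97.1% on the arms, with 330 of 340 peaks (odds ratio of heterochromatic over arm peaks 0.335, 0.0807 to 1.99, adjusted p = 0.177 by Fisher's exact test). The Dsim_Zeus share was 5.65% on the arms, with 34 of 602 peaks (odds ratio 0.789, 0.433 to 1.41, adjusted p = 0.494 by Fisher's exact test). Dsim_Zeus peaks met a Dmel_Zeus peak in 13 of 488 heterochromatic and 16 of 602 arm cases (odds ratio 1.00, 0.439 to 2.25, adjusted p = 1 by Fisher's exact test).

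Seen from the other lists, meeting Dsim_Zeus was more frequent on heterochromatic sequences. Of Dmel_Zeus peaks, 13 of 36 heterochromatic ones (36.1%) and 8 of 340 on the arms (2.35%) met a Dsim_Zeus peak (odds ratio 23.0, 7.93 to 71.1, adjusted p = 2.21e-09 by Fisher's exact test). Of Dyak_Caf40 peaks, 22 of 96 heterochromatic ones (22.9%) and 25 of 1867 on the arms (1.34%) did so (odds ratio 21.8, 11.2 to 42.4, adjusted p = 4.24e-17 by Fisher's exact test). Dsim_Zeus peaks covered 2.79% of the heterochromatic sequences and 0.253% of the arms, and the part of this coverage in the overlap was not tested. XHet carried 7 of the 13 Dmel_Zeus and 8 of the 22 Dyak_Caf40 peaks that met Dsim_Zeus. Without XHet the odds ratios were 10.7 for Dmel_Zeus (adjusted p = 0.000812 by Fisher's exact test) and 13.9 for Dyak_Caf40 (adjusted p = 1.80e-09). Against arm peaks within 1 Mb of the centromere-proximal end only, they were 4.97 for Dmel_Zeus (adjusted p = 0.0605 by Fisher's exact test) and 3.92 for Dyak_Caf40 (adjusted p = 0.0132), so that the Dmel_Zeus call was lost.

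Dyak_Caf40 peaks also met a Dmel_Zeus peak more often on heterochromatic sequences, in 32 of 96 cases (33.3%), than on the arms, in 322 of 1867 (17.2%). The odds ratio was 2.40 (1.49 to 3.79, adjusted p = 0.000390 by Fisher's exact test). This call was lost with the 376 top-scoring peaks of each list (odds ratio 1.54), with clusters (1.33) and against arm peaks within 1 Mb of the centromere-proximal end (1.22).

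**Figure D3:**
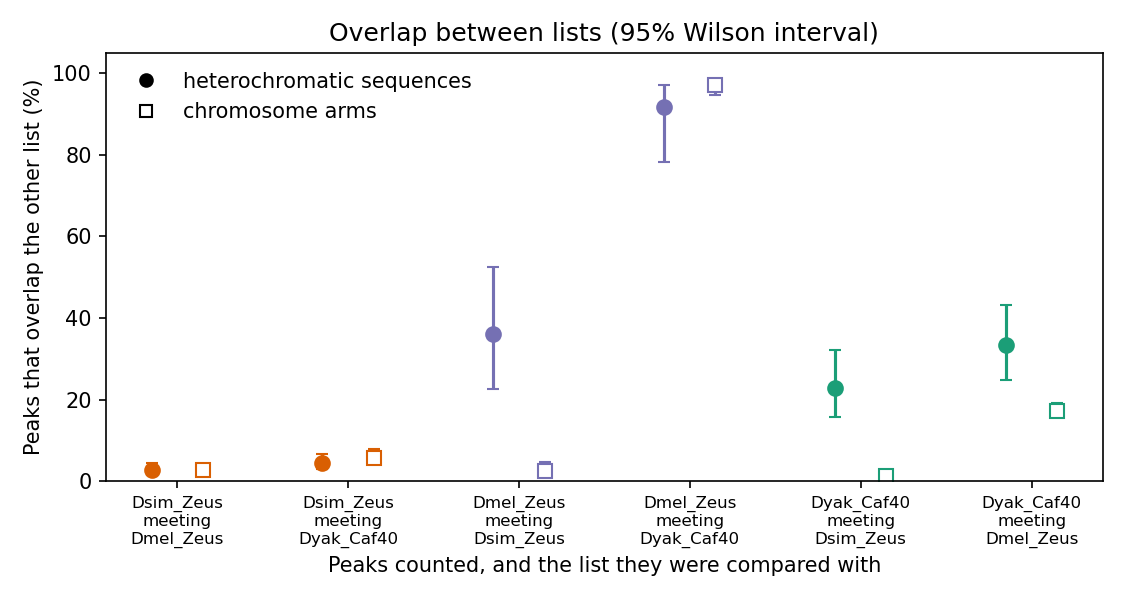
Share of peaks of the first-named list (%) that overlap a peak of the second by at least 1 bp, for heterochromatic peaks (filled circles) and arm peaks (open squares) with 95% Wilson intervals. Dmel_Zeus met Dyak_Caf40 at 91.7% and 97.1%, Dsim_Zeus met the other lists at 2.66% to 5.65%, and the shares meeting Dsim_Zeus were 36.1% and 22.9% on heterochromatic sequences against 2.35% and 1.34% on the arms.

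How closely the midpoints of meeting peaks lay differed between pairs of lists. The midpoints of the 33 heterochromatic Dmel_Zeus peaks and their Dyak_Caf40 partners lay a median of 39 bp apart, and 25 pairs lay within 100 bp. For the 330 arm pairs the median was 16 bp. The 22 heterochromatic Dsim_Zeus peaks that met Dyak_Caf40 had midpoints a median of 153 bp from those of their partners, against 248.5 bp for the 34 arm pairs. For Dsim_Zeus and Dmel_Zeus the median was 86.5 bp over 13 heterochromatic pairs and 610.5 bp over 16 arm pairs. Several Dsim_Zeus peaks could share 1 wider partner, which sets midpoints apart. The 16 arm pairs had 8 distinct Dmel_Zeus partners and a median width ratio of 0.166, against 11 partners and 0.756 for the 13 heterochromatic pairs. The 34 arm pairs with Dyak_Caf40 had 25 partners and a ratio of 0.455, and the 22 heterochromatic pairs 18 and 0.767. Most Dsim_Zeus peaks were far from the other lists, since the nearest Dyak_Caf40 peak was a median of 58.4 kb away on heterochromatic sequences and 38.3 kb on the arms. The reverse distance was short on heterochromatic sequences, where Dsim_Zeus peaks are dense. The nearest Dsim_Zeus peak was a median of 2.74 kb from a Dmel_Zeus peak and 2.90 kb from a Dyak_Caf40 peak there, against 158 kb and 177 kb on the arms.

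By their medians, peaks found in all 3 lists ranked high within each list. XHet held 5 of the 12 such peaks of Dsim_Zeus, 7 of the 12 of Dmel_Zeus and 7 of the 14 of Dyak_Caf40. They were also wide, with medians of 502, 582.5 and 879 bp in these lists. Dsim_Zeus and Dyak_Caf40 peaks that met neither other list had medians of 370 and 328.5 bp. The part of width in meeting and in score was not tested. For the 12 heterochromatic Dsim_Zeus peaks that met both other lists the median score percentile was 96.5, and for the 465 that met neither it was 52.9. In Dmel_Zeus, the 12 heterochromatic peaks that met both others had a median of 90.9, against 59.8 for the 21 that met Dyak_Caf40 alone. In Dyak_Caf40, the 18 peaks that met Dmel_Zeus alone had a median of 90.7, nearly that of the 14 that met both (90.5), while the 8 that met Dsim_Zeus alone had 47.4 and the 56 that met neither had 52.2. Sharing with Dmel_Zeus thus went with high Dyak_Caf40 scores, and sharing with Dsim_Zeus alone did not. The link with Dmel_Zeus was not particular to heterochromatic peaks. The Dyak_Caf40 partners of the 330 arm Dmel_Zeus peaks had a median percentile of 90.9, against 90.7 for those of the 33 heterochromatic peaks.

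By their medians with the sequences pooled, heterochromatic peaks ranked above arm peaks of the same list and were wider. In Dsim_Zeus the median score percentile was 54.2 for heterochromatic and 46.3 for arm peaks, in Dmel_Zeus 72.7 and 47.4, and in Dyak_Caf40 71.6 and 49.0. Without XHet the heterochromatic medians were 53.4, 60.6 and 69.1 for Dsim_Zeus, Dmel_Zeus and Dyak_Caf40. Median widths were 371.5 bp on heterochromatic sequences and 346.5 bp on the arms in Dsim_Zeus, 437 and 306 bp in Dmel_Zeus, and 399.5 and 337 bp in Dyak_Caf40. Single sequences also lay below the arm medians. These were 3RHet in the percentile of Dmel_Zeus (16.4, 5 peaks), and in width 2LHet for Dmel_Zeus (261 bp, 2 peaks) and YHet for Dsim_Zeus (325 bp, 21 peaks). Wide peaks of over 1 kb were 8.81% of heterochromatic and 8.80% of arm peaks in Dsim_Zeus, 16.7% and 2.65% in Dmel_Zeus, and 11.5% and 6.43% in Dyak_Caf40. Of the 6 wide heterochromatic peaks of Dmel_Zeus, 4 lay on XHet, as did 5 of the 11 of Dyak_Caf40.

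Dsim_Zeus peaks came in runs on heterochromatic sequences and on the arms. Joining heterochromatic peaks less than 10 kb apart gave 186 clusters and left 85 peaks alone. Clusters of 2 or more held 82.6% of the heterochromatic peaks, against 74.1% of the Dsim_Zeus arm peaks. The 10 kb limit was the same for both, although peaks were denser on heterochromatic sequences. Gaps under 1 kb made up 24.7% of the gaps there and 25.5% on the arms, with median gaps of 5487 and 6503.5 bp. The largest heterochromatic cluster held 15 peaks in 47.2 kb at chr2RHet:3079905-3127129, and another held 12 peaks in 20.5 kb at chr3LHet:496301-516816. The largest arm cluster held 31 peaks in 43.4 kb on 2R. The Y sequence held a cluster of 9 peaks at chrYHet:301428-344415, in which neither other list had a peak. In Dmel_Zeus, 66.7% of heterochromatic and 21.8% of arm peaks lay in clusters, and in Dyak_Caf40 63.5% and 64.9%. The largest heterochromatic clusters of Dmel_Zeus and Dyak_Caf40 were the XHet group, with 7 and 8 peaks.

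Many Dsim_Zeus peaks stood on several identical lines of the list, and a few heterochromatic ones accounted for a large part of the heterochromatic lines. The 488 peaks took 1312 lines, and 113 (23.2%) were repeated, a share close to the 23.4% on the arms. The 4 most repeated peaks took 509 lines, or 38.8%, and the other 484 took 803. The most repeated was chr3RHet:1169870-1173714 with 200 lines, 3845 bp wide and ranked 18. Next came the neighbours chr2RHet:292467-296615 and chr2RHet:296811-301276, which are 195 bp apart and took 125 and 120 lines. None of these 3 met a peak of another list. Another was the wide XHet peak above, with 64 lines. Repeated heterochromatic Dsim_Zeus peaks were wider, with a median of 646 bp against 320 bp for those on a single line. Arm peaks of the list went the same way, with 692 and 309 bp. On the arms, 24 Dsim_Zeus peaks took 10 or more lines, up to 128, against 10 heterochromatic peaks. Of the lines beyond the first of a peak, 45.4% were heterochromatic, near the 44.8% of peaks. Repeats were rare in the other lists, with 3 of 36 heterochromatic Dmel_Zeus peaks and 4 of 96 of Dyak_Caf40. What the number of lines stands for is not stated in the sources used here.

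With the large arms pooled, the Dsim_Zeus excess did not stop where the heterochromatic sequences end. On the 5 large arms, Dsim_Zeus density was 3.18 peaks per 100 kb in the 1 Mb next to the centromere-proximal end, 1.32 from 1 to 2 Mb, 0.540 from 2 to 5 Mb and 0.307 farther out, against 5.28 on the heterochromatic sequences without YHet. Dmel_Zeus had 0.6, 0.280, 0.213 and 0.255 peaks per 100 kb in the same windows and 0.384 on the heterochromatic sequences. Dyak_Caf40 had 2.00, 1.70, 1.30 and 1.52, and 1.07 on the heterochromatic sequences. With the 5 arms pooled, the Dyak_Caf40 peak density was lower on the heterochromatic sequences than in each window, and this direction against the arms turned with running numbers. Single arms went below the heterochromatic density, with 0.9 on 3L within 1 Mb. X did so with 1 within 1 Mb, 0.4 between 1 and 2 Mb and 1 from 2 to 5 Mb. The Dsim_Zeus density next to the centromere differed between arms, with 5.5 on X, 3.70 on 3L, 3.60 on 2R, 2.50 on 2L and 0.6 on 3R. The 3R end was an exception, since Dyak_Caf40 had 3.50 peaks per 100 kb there. Counting the heterochromatic sequences and these 1 Mb ends together gave an odds ratio of 13.2 for Dsim_Zeus over Dyak_Caf40 and of 6.85 for Dsim_Zeus over Dmel_Zeus. Chromosome 4, which the study describes as rich in heterochromatin, was counted with the arms and not in these windows. Counted in peaks, Dsim_Zeus showed no such excess there, with 8 peaks or 0.593 per 100 kb, near its 0.501 on all arms. Counted in running numbers it did, with 19.4 per 100 kb on chromosome 4, 17.7 on the heterochromatic sequences and 4.95 on all arms. In peaks, Dmel_Zeus had 1.85 and Dyak_Caf40 4.60 per 100 kb on chromosome 4, above their densities on the heterochromatic sequences together.

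**Figure D4:**
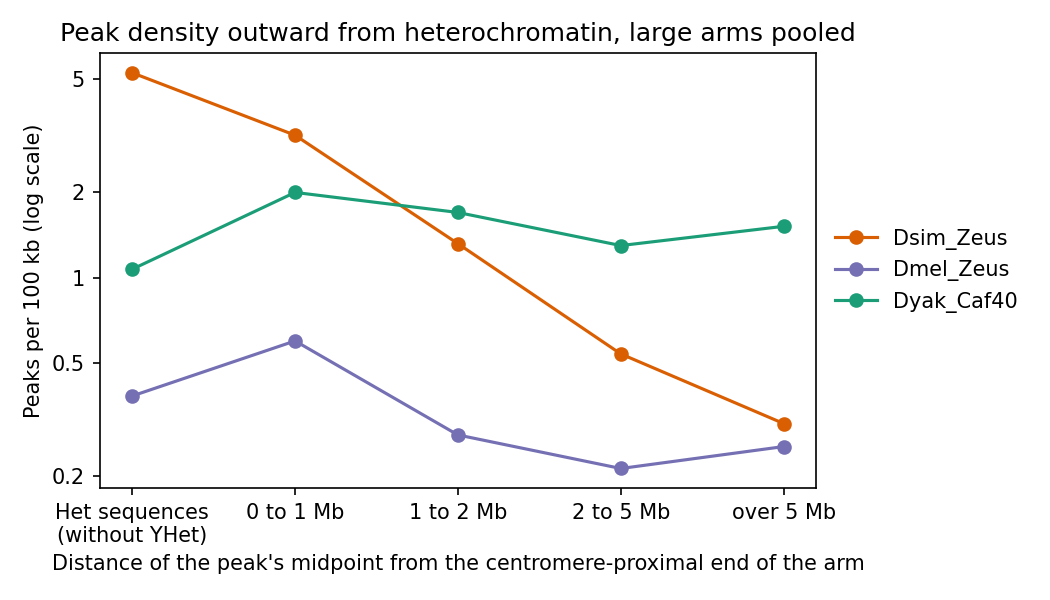
Peaks per 100 kb (log scale) on the heterochromatic sequences without YHet and in windows of 2L, 2R, 3L, 3R and X by distance from the centromere-proximal end, with 1 line per list and no replicates. Dsim_Zeus declines across the windows, 5.28 to 0.307, while Dyak_Caf40 stays between 1.07 and 2.00 and Dmel_Zeus between 0.213 and 0.6.

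The running numbers in the peak names hold a further measure. Numbers rose with position on all 13 sequences of every list, and numbers missing between 2 peaks were read as peaks that were called but are not in the list, a reading that was not tested. The last number was 7835 in Dsim_Zeus, 427 in Dmel_Zeus and 2844 in Dyak_Caf40, of which the lists kept 13.9%, 88.5% and 69.1%. This measure was chosen after the lists were seen, and the shares kept are descriptions without a test. Only numbers between the first and last peak of a sequence can be placed on it.

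Dsim_Zeus kept a larger part of its numbers on heterochromatic sequences than on the arms, and the other lists a smaller part. Dsim_Zeus kept 488 of 1626 numbers on heterochromatic sequences (30.0%, 27.8 to 32.3) and 602 of 5947 on the arms (10.1%, 9.38 to 10.9). Dmel_Zeus kept 36 of 51 (70.6%, 57.0 to 81.3) and 340 of 365 (93.2%, 90.1 to 95.3). Dyak_Caf40 kept 96 of 216 (44.4%, 38.0 to 51.1) and 1867 of 2609 (71.6%, 69.8 to 73.3). In Dsim_Zeus, each of the 6 heterochromatic sequences (27.4% to 64.3%) lay above each of the 6 arms (3.05% to 15.1%). The lowest was chromosome 4, where Dsim_Zeus had 19.4 numbers per 100 kb, against 17.7 on the heterochromatic sequences. In Dyak_Caf40, 2RHet, 3LHet and 3RHet kept 40.4% to 42.7%, below every arm (66.7% to 86.1%). Its 8 XHet numbers were all kept.

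Counting every placed number as a peak, which rests on that reading, reduced the Dsim_Zeus excess without ending it. The heterochromatic share of placed numbers was 21.5% in Dsim_Zeus, 12.3% in Dmel_Zeus and 7.65% in Dyak_Caf40. The odds ratio was then 3.30 for Dsim_Zeus over Dyak_Caf40 (adjusted p = 1.51e-68 by Fisher's exact test), 1.69 for Dmel_Zeus over Dyak_Caf40 (adjusted p = 0.00218) and 1.96 for Dsim_Zeus over Dmel_Zeus (adjusted p = 3.56e-06). Whether the missing numbers were removed when the study intersected replicates was not tested. Within 1 Mb of the centromere-proximal ends of the large arms, Dsim_Zeus kept 24.0% of its numbers, against 8.83% on the rest of those arms, while Dmel_Zeus kept 78.9% and 95.6% and Dyak_Caf40 61.3% and 72.1%. The arm 3R went the other way from these pooled values, with 6.59% and 6.92% in Dsim_Zeus and 92.1% and 68.8% in Dyak_Caf40. In Dmel_Zeus, 2L (9 of 16 numbers) and X (2 of 3) had missing numbers within 1 Mb, and 2R, 3L and 3R had none missing there.

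**Figure D5:**
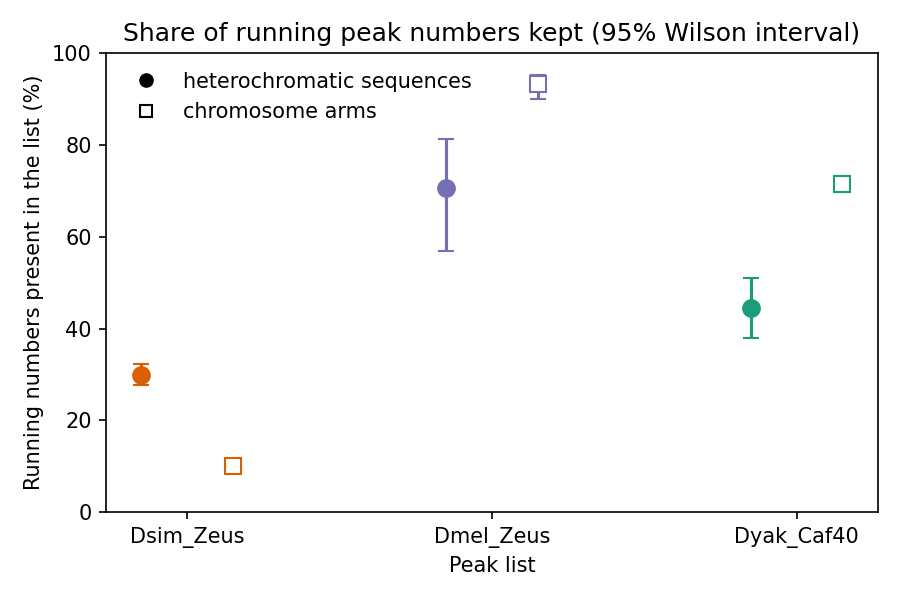
Share of running peak numbers that are present in each list (%), for heterochromatic sequences (filled circles) and chromosome arms (open squares), with 95% Wilson intervals. Dsim_Zeus kept 30.0% and 10.1%, Dmel_Zeus 70.6% and 93.2%, and Dyak_Caf40 44.4% and 71.6%.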

How the data were processed

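ChIP-Seq was performed on 10 immunoprecipitated and 3 input libraries. The study's methods state BWA mapping of single-end reads to UCSC dm3, peak calling with MACS2 and an intersection of the peaks of the best replicate pair. The methods name the same number of technical replicates for every protein, while the labels describe 2 for Dmel_Zeus. Default BWA settings were used, and an input without antibody was sequenced for each protein as a negative control. Which replicates were used and whether the input entered the MACS2 call are not given in the sources used here, nor is any filter on reads that match several places. The submitters' processing notes name mm9, a mouse build, and CASAVA 1.4, but the sequence names are those of the fly.

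Each list holds a sequence, start, end, name and score. For the score, the authors deposited no scale, and it served only as a rank within a list. Starts and ends, as deposited by the authors, are given counted from 1 on dm3. Lists were matched to proteins through the letter of the line code in library titles. A dm3 genome or annotation was not used here, so no sequence is shown and no gene is named.

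Peaks were counted, overlapped and ranked in Python 3.11.15 with pandas 2.3.3, numpy 2.4.6 and scipy 1.17.1. Shares carry 95% Wilson intervals. Two-sided Fisher's exact tests were adjusted by the Benjamini-Hochberg method within each family (3 pairs of lists, 18 sequence and pair tests, 6 ordered pairs), with a threshold of 0.05. Odds ratios are conditional estimates with exact intervals. The scripts were tested on simulated data. Alternatives were repeated lines, higher-scoring peaks, clusters, covered bases, other overlap rules, and leaving out each heterochromatic sequence. Named regions are the 5 highest-scoring heterochromatic peaks of each list, the highest on each sequence, the 3 widest, the 3 on most lines, the 10 shared by all lists with the lowest sum of ranks, and Dmel_Zeus peaks without Dyak_Caf40. The largest clusters, the eleventh shared region and the Dsim_Zeus peaks listed by rank were singled out after their values were seen. So were the stretch of XHet with Dyak_Caf40 and short Dsim_Zeus peaks and the 2LHet pair. The members and lists were chosen with earlier results of these data known.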

Additional observations from a re-analysis of the deposited data

Results flagged for a closer look

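The share of running peak numbers kept on heterochromatic sequences, against the share kept on the arms, ran in opposite directions between lists. It was 30.0% in Dsim_Zeus, above the 10.1% of its arms. It was 70.6% in Dmel_Zeus and 44.4% in Dyak_Caf40, below the 93.2% and 71.6% of their arms. Each protein has 1 list, and the difference in direction was not tested.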

How the results depend on the processing

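Of 136 alternative values, 118 kept their direction and their side of the threshold or moved within their interval. The higher heterochromatic share of Dsim_Zeus over Dyak_Caf40 held in all 13 alternatives (odds ratio 3.30 to 16.9), and that over Dmel_Zeus kept its direction in all 13 (1.96 to 10.2), with 4.05 in covered bases, which carries no test. Dmel_Zeus over Dyak_Caf40 was 1.10 with the 376 top-scoring peaks of each list and 1.24 with clusters. Of the 18 tests of single sequences, 2 passed, against 4 with every line counted (7 unadjusted, Fisher's exact test) and 0 with clusters (0 unadjusted). For XHet, the odds ratio of Dsim_Zeus over Dyak_Caf40 lost its call with every line counted (0.481) and with clusters (0.853), and that over Dmel_Zeus with clusters (0.298). The odds ratio of heterochromatic over arm peaks for Dsim_Zeus meeting Dmel_Zeus, never past the threshold, turned to 0.874 with the higher-scoring 50%, 0.897 with the 376 top-scoring peaks, 0.622 without XHet, 0.884 without YHet and 0.698 against arm peaks within 1 Mb of the centromere-proximal ends. Dsim_Zeus meeting Dyak_Caf40 turned to 1.14 with clusters. The call was lost for Dmel_Zeus meeting Dsim_Zeus against the 1 Mb ends (4.97), and for Dyak_Caf40 meeting Dmel_Zeus with the 376 top-scoring peaks (1.54), clusters (1.33) and the 1 Mb ends (1.22). The 1 Mb ends as the comparison and the count of all running numbers were chosen after seeing the data, and the cause of these changes was not tested. The lower share of Dsim_Zeus than of Dmel_Zeus heterochromatic peaks meeting Dyak_Caf40 held in all 11 alternatives (0.00222 to 0.0141). Each of these set more Dsim_Zeus than Dmel_Zeus peaks against the Dyak_Caf40 list, so the limit from list size stayed. No paired analysis was possible because values per library are not part of the lists, and no replicate could be left out for the same reason.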
